A study of Mus musculus with 12 samples.

Results

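Light zone (LZ) and dark zone (DZ) germinal centre B cells of low affinity were compared across the transcriptome with 6 of the 12 arrays of the study, 3 LZ_low and 3 DZ_low. The members were chosen by their labels alone, and each LZ_low array was paired with the DZ_low array whose description carries the same suffix, which gives matched sets 1 to 3. The other 6 arrays, 3 LZ_high and 3 DZ_high, hold cells of high affinity and serve here as a second look at the genes named at low affinity.

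Both groups were donor B cells taken from the spleen 10 days after immunization. The donor cells were SwHEL B cells, which carry an engineered receptor for hen egg lysozyme, and they bore the CD45.1 marker; the recipients were C57BL/6J mice (CD45.2), and the labels give the sex as female and no age. The antigen was the lysozyme mutant HEL3x conjugated to sheep red blood cells, and the receptor system and antigen were the same in both groups. Donor germinal centre cells were gated as CD45.1+, CD45.2-, IgG1+ and CD38 low. LZ_low cells were those with high CD86 and low CXCR4, and DZ_low cells those with high CXCR4 and low CD86. How affinity was gated, how many animals gave each sample and whether samples were pooled are not given in the labels, so the p-values below rest on how much these samples vary, and that variation may be technical.

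The germinal centre is the structure in which activated B cells divide, mutate their receptor genes and compete for T cell help. In the dark zone, cells held by CXCR4 cycle and carry out somatic hypermutation. In the light zone, cells meet antigen on follicular dendritic cells, signal through the antigen receptor, present antigen on MHC class II and receive help through CD40 and cytokines.

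All values are deposited log2 RMA expression values, and a difference is LZ_low minus DZ_low on that log2 scale, with the standard error (SE) of a limma fit over all 12 arrays that has matched set as a replicate block (n = 3 pairs). A gene is called, and is said to rise or fall in LZ_low, where its Benjamini-Hochberg adjusted p over the 11206 genes tested is below 0.05. The array medians of the 6 low-affinity arrays lay between 5.57 and 5.72, and the arrays correlated with one another at 0.968 to 0.992 across genes. Matched set 3 was separate from the other sets on the first principal component of all 12 arrays (40.1% of the variance), with scores of 12.5 and 27.5 for its DZ_low and LZ_low arrays against -26.4 to -6.7 for the arrays of the other sets. B cell and germinal centre genes were well above the array medians in all 6 arrays: the B cell surface gene Ms4a1 lay between 10.92 and 11.33 and the germinal centre regulator Bcl6 between 9.90 and 10.29.

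Neither gene of the sort passed the threshold at low affinity, while 5 other genes named as zone markers for this comparison did. Cd86, the costimulatory ligand used to gate LZ cells, was measured at 10.28, 10.00 and 10.41 in DZ_low (sets 1, 2 and 3) and at 11.05, 10.92 and 11.12 in LZ_low. Its 3 LZ_low values lay above all DZ_low values, but its difference of 0.80 ± 0.15 did not pass the threshold (adjusted p = 0.0898). Cxcr4, the receptor for CXCL12 and the other gating marker, was measured at 11.12, 10.73 and 11.02 in DZ_low and at 10.45, 10.18 and 10.88 in LZ_low. Its RNA was lower in LZ_low in each of the 3 pairs, the groups overlapped, and the difference of -0.45 ± 0.18 did not pass (adjusted p = 0.526). The sort selected on the proteins of these 2 genes, so their values check the gate and are not findings. Of the other markers given for the zones, Cd83, Fcer2a and Hhex rose and Myl4 and Polh fell. The comparison was chosen with earlier results of these data known, so the calls of these 5 markers are not independent evidence.

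Of the 11206 genes tested, 25 were called (0.223%), 15 higher in LZ_low (0.134%) and 10 lower (0.0892%). The set of calls depended strongly on the pairing and on single arrays. The same limma fit without the block called 4 genes (0.0357%), Cd83, Fcer2a, Hhex and Myl4. None of the 25 was called in each of the 12 fits that left out 1 array. The count was 0 without the DZ_low array of set 1 or without any 1 of the 3 LZ_low arrays, 3 without the DZ_low array of set 3 and 8 without that of set 2. A fit of the 6 low-affinity arrays alone with the block called 0 genes at an adjusted p below 0.05, with 1250 at an unadjusted p below 0.05. In 24 of the 25 called genes all 3 LZ_low values lay on one side of all 3 DZ_low values. Over all genes tested, 5.41% were separated with LZ_low above and 3.86% with LZ_low below. The 25 were called on these same arrays, so their separation is not further support for the calls. The exact permutation test over 3 against 3 arrays, which leaves out the pairing, cannot go below a two-sided p of 0.10. No gene can therefore be called by it alone.

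**Figure D1:**
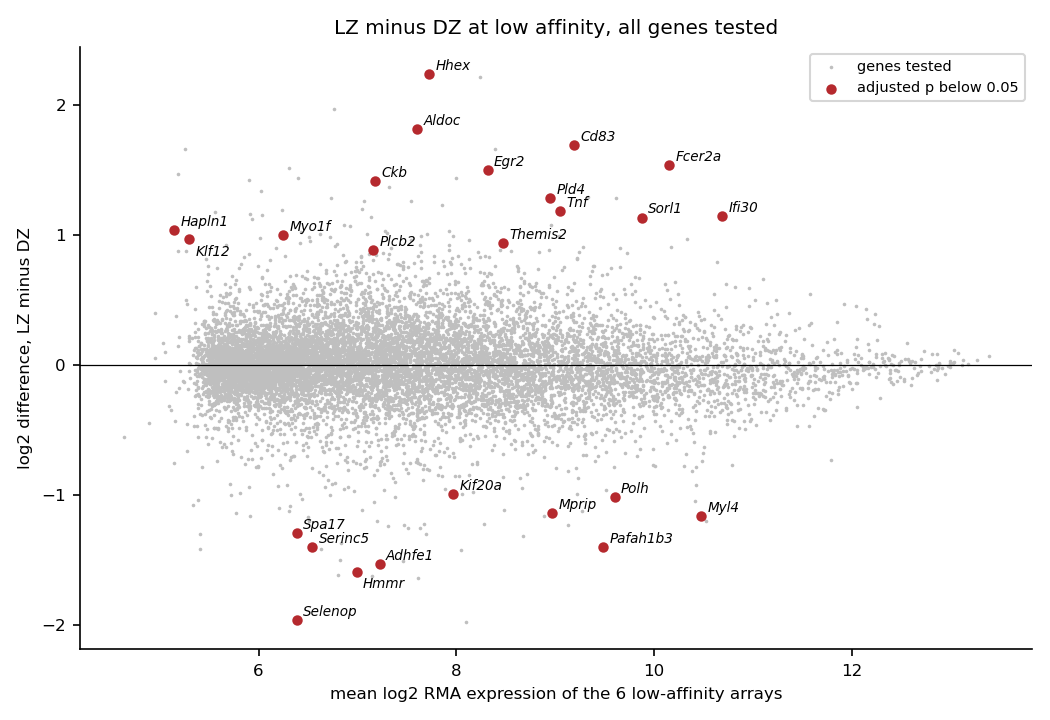
Difference between LZ_low and DZ_low (vertical axis, log2) against mean log2 RMA expression of the 6 low-affinity arrays (horizontal axis) for the 11206 genes tested; red points are the 25 genes with an adjusted p below 0.05. No called gene is among the brightest genes at the right of the plot, and the called genes lie at differences of at least 0.88 in size, with Hhex highest at 2.24 and Selenop lowest at -1.96.

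Surface and transcription factor genes led the rises. Cd83, which encodes a surface protein of activated B cells and dendritic cells that stabilizes MHC class II and CD86, was measured at 8.30, 8.24 and 8.47 in DZ_low and at 10.12, 9.85 and 10.14 in LZ_low. The 2 groups were separated by more than 1 log2 unit, and Cd83 rose 3.24-fold, by 1.70 ± 0.15 (adjusted p = 0.00675). Fcer2a, the gene of CD23, a receptor that binds IgE with low affinity, was at 9.22, 9.23 and 9.70 in DZ_low and at 10.91, 10.81 and 11.06 in LZ_low. Every LZ_low value was again above every DZ_low value, and Fcer2a rose by 1.54 ± 0.15 (adjusted p = 0.00973). Each of these genes lost its call in 4 of the 12 fits that left out 1 array, and passed without the block (adjusted p = 0.0165 for both).

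Hhex, which encodes a homeobox transcription factor known for its part in memory B cell formation, showed the largest rise among the called genes. It was measured at 7.0, 6.07 and 6.75 in DZ_low and at 8.98, 9.01 and 8.54 in LZ_low. The DZ_low values varied by nearly 1 log2 unit while those of LZ_low were close together, and the rise was 4.72-fold, 2.24 ± 0.27 (adjusted p = 0.0244; 0.0273 without the block). Egr2, an early response transcription factor downstream of the antigen receptor, was at 7.49, 7.23 and 7.98 in DZ_low and at 9.18, 8.73 and 9.28 in LZ_low. The array order within each group was the same, with set 3 highest and set 2 lowest, and Egr2 rose by 1.5 ± 0.18 (adjusted p = 0.0244; 0.0999 without the block). Klf12, a Krüppel-like factor, rose by 0.97 ± 0.16 (adjusted p = 0.0493) from DZ_low values of 4.72 to 4.97, which lie below the array medians.

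Genes of cytokine, lipid and antigen receptor signalling were also among the rises. Tnf, the gene of the cytokine tumour necrosis factor, was measured at 8.62, 7.97 and 8.75 in DZ_low and at 9.54, 8.96 and 10.41 in LZ_low. The LZ_low array of set 3 was the highest of the 6 and that of set 2 was the lowest in LZ_low, just above the top DZ_low array. The rise of 1.19 ± 0.19 (adjusted p = 0.0465) did not pass without the block (adjusted p = 0.922). Plcb2, which encodes a phospholipase C that acts below G protein coupled receptors, rose by 0.88 ± 0.13 (adjusted p = 0.0406). Themis2, an adaptor in antigen receptor signalling of B cells, rose by 0.94 ± 0.14 (adjusted p = 0.0418). Sorl1, a sorting receptor of the endosomal system, was at 9.28, 8.88 and 9.77 in DZ_low and at 10.42, 10.18 and 10.74 in LZ_low, and rose by 1.14 ± 0.16 (adjusted p = 0.0394). As for Egr2, Sorl1 was highest in set 3 and lowest in set 2 in both zones.

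Genes of the endosome, lysosome and cytoskeleton made up a further group. Ifi30, the lysosomal thiol reductase that opens disulphide bonds of antigen before loading on MHC class II, was at 9.92, 9.77 and 10.65 in DZ_low and at 11.12, 11.26 and 11.42 in LZ_low. It was among the more highly expressed called genes and rose by 1.15 ± 0.18 (adjusted p = 0.0465). Pld4, an endosomal nuclease, was at 8.42, 8.03 and 8.48 in DZ_low and at 9.82, 9.16 and 9.80 in LZ_low, a rise of 1.29 ± 0.20 (adjusted p = 0.0465). Myo1f, a class I myosin of haematopoietic cells, rose by 1.00 ± 0.16 (adjusted p = 0.0465). Hapln1, which encodes a link protein of the hyaluronan matrix, rose by 1.04 ± 0.16 (adjusted p = 0.0406), with DZ_low values of 4.22 to 4.99 that lie below the array medians.

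Several of these genes are also expressed in myeloid cells, and myeloid markers were therefore read beside them. Of 17 macrophage and dendritic cell markers, 13 were too dim to be tested, among them Adgre1, Csf1r, Itgam, Cd14 and Mertk. In set 3 these named markers differed by 0.39, 0.49, 0.50, 0.14 and 0.35. Of the other dim markers, Vcam1, Zbtb46 and Itgax had negative differences in set 3, of -0.34, -0.08 and -0.01. The mean level of the 4 tested markers lay between 5.74 and 6.11 in DZ_low and between 5.80 and 6.92 in LZ_low, and 0 of them passed the threshold. Lyz2 was at 8.24 and the granulocyte gene Ngp at 8.72 in the LZ_low array of set 3, against 4.45 and 5.08 in the LZ_low array of set 1. Of 12 granulocyte markers 8 were tested and 0 passed, with mean levels of 5.67 to 6.57 in DZ_low and 5.51 to 7.07 in LZ_low. Their median difference was 0.37, and it was -0.14, 0.20 and 1.02 in sets 1, 2 and 3. The dim granulocyte markers Cxcr2, Csf3r, Ltf and Ly6g differed by 1.01, 0.90, 0.50 and -0.30 in set 3. The macrophage and dendritic cell list had a median difference of 0.52, and of 0.04, 0.64 and 0.59 in sets 1, 2 and 3. Its member Cd68, a lysosomal protein of macrophages, was at 7.24, 7.20 and 7.17 in DZ_low and at 8.07, 8.02 and 8.15 in LZ_low (difference 0.87 ± 0.23, adjusted p = 0.27). Of the 4 tested markers, Cd68 was separated between the groups, while Lyz2, C1qa and C1qb overlapped.

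The T cell markers Thy1, Cd3d and Cd3g were also highest in the LZ_low array of set 3, but the list did not follow as a whole. Of 14 markers 5 were tested and 0 passed, with mean levels of 5.66 to 5.90 in DZ_low and 5.56 to 6.28 in LZ_low. The median difference of the tested markers was -0.16, 0.20 and 0 in sets 1, 2 and 3. A further 7 markers were too dim. Of these, Cd4, Cd28, Cd8b1 and Zap70 differed by -0.003, -0.14, -0.50 and -0.07 in set 3, and Il7r by 0.15. Thy1 was at 8.05 in the LZ_low array of set 3, against 5.63 and 6.36 in the LZ_low arrays of sets 1 and 2. Cd3d and Cd3g, both too dim to be tested, were at 7.32 and 7.60 in that array, against 4.18 and 4.20 in the LZ_low array of set 1. Cd3g was also raised in the DZ_low array of set 3, at 6.67. The LZ_low array of set 3 also had the highest Tnf, which differed by 0.92, 0.99 and 1.65 in sets 1, 2 and 3. In the same order, Ifi30 differed by 1.20, 1.49 and 0.765, Pld4 by 1.41, 1.13 and 1.32 and Myo1f by 0.84, 1.29 and 0.88. Tnf did not pass in the limma fit without any 1 of the 3 sets. Without sets 1, 2 and 3 those fits called 0, 0 and 5 of all genes tested, so this loss is not particular to Tnf. Tnf differed by 1.32, 1.29 and 0.955 without sets 1, 2 and 3 (adjusted p = 0.527, 0.656 and 0.131). The part of myeloid cells and T cells in the rises of Tnf, Ifi30, Pld4 and Myo1f was not tested. In bulk sorted samples, more cells of a type and more RNA per cell cannot be told apart.

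2 metabolic genes completed the rises. Aldoc, which encodes the aldolase C isoenzyme of glycolysis, was at 6.85, 6.23 and 7.01 in DZ_low and at 8.39, 8.08 and 9.06 in LZ_low, and rose by 1.82 ± 0.27 (adjusted p = 0.0406). Ckb, the brain-type creatine kinase, was at 6.38, 6.36 and 6.67 in DZ_low and at 7.41, 8.0 and 8.25 in LZ_low, and rose by 1.42 ± 0.18 (adjusted p = 0.0244). For both genes the lowest LZ_low array lay above the highest DZ_low array. Of 17 glycolysis and hypoxia genes tested, 1 rose, Aldoc, and 0 fell, and the median difference was -0.01.

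The falls included genes of DNA synthesis across damaged template, of the cytoskeleton and of mitosis. Polh, the translesion DNA polymerase eta that writes mutations at A:T pairs during hypermutation, was at 10.23, 9.84 and 10.25 in DZ_low and at 8.97, 8.93 and 9.37 in LZ_low. All 3 LZ_low values were below all DZ_low values, and Polh fell by 1.02 on the log2 scale (SE 0.15; adjusted p = 0.0394). Myl4, which encodes a myosin essential light chain best known from embryonic and atrial muscle, was at 11.14, 10.96 and 11.06 in DZ_low and at 9.81, 10.07 and 9.81 in LZ_low. It was among the brightest of the called genes, its groups did not overlap, and it fell by 1.16 (SE 0.14; adjusted p = 0.0244; 0.0273 without the block). Mprip, which tethers myosin phosphatase to actin and RhoA, fell by 1.14 (SE 0.17; adjusted p = 0.0406). Spa17, known as a sperm protein that binds protein kinase A anchors, fell by 1.30 (SE 0.21; adjusted p = 0.0465).

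Enzyme and transport genes accounted for the largest fall. Selenop, the gene of a secreted selenium carrier, was at 7.43, 7.32 and 7.35 in DZ_low and at 5.29, 5.72 and 5.20 in LZ_low. The LZ_low values of 2 arrays lay below the array medians, and Selenop fell by 1.96 (SE 0.29; adjusted p = 0.0394). Adhfe1, an alcohol dehydrogenase family enzyme of the mitochondrion, was at 8.18, 8.20 and 7.58 in DZ_low and at 6.92, 6.5 and 5.95 in LZ_low, and fell by 1.53 (SE 0.22; adjusted p = 0.0394). Pafah1b3, a catalytic subunit of an acetylhydrolase of platelet activating factor, was at 10.30, 9.75 and 10.51 in DZ_low and at 8.80, 8.56 and 9.0 in LZ_low, and fell by 1.40 (SE 0.18; adjusted p = 0.0252). Both genes were separated between the groups, Adhfe1 being lowest in set 3 in both zones. Serinc5, a membrane protein known to restrict retroviral infectivity, was at 7.56, 6.81 and 7.35 in DZ_low and at 5.86, 5.72 and 5.95 in LZ_low, and fell by 1.40 (SE 0.20; adjusted p = 0.0394).

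**Figure D2:**
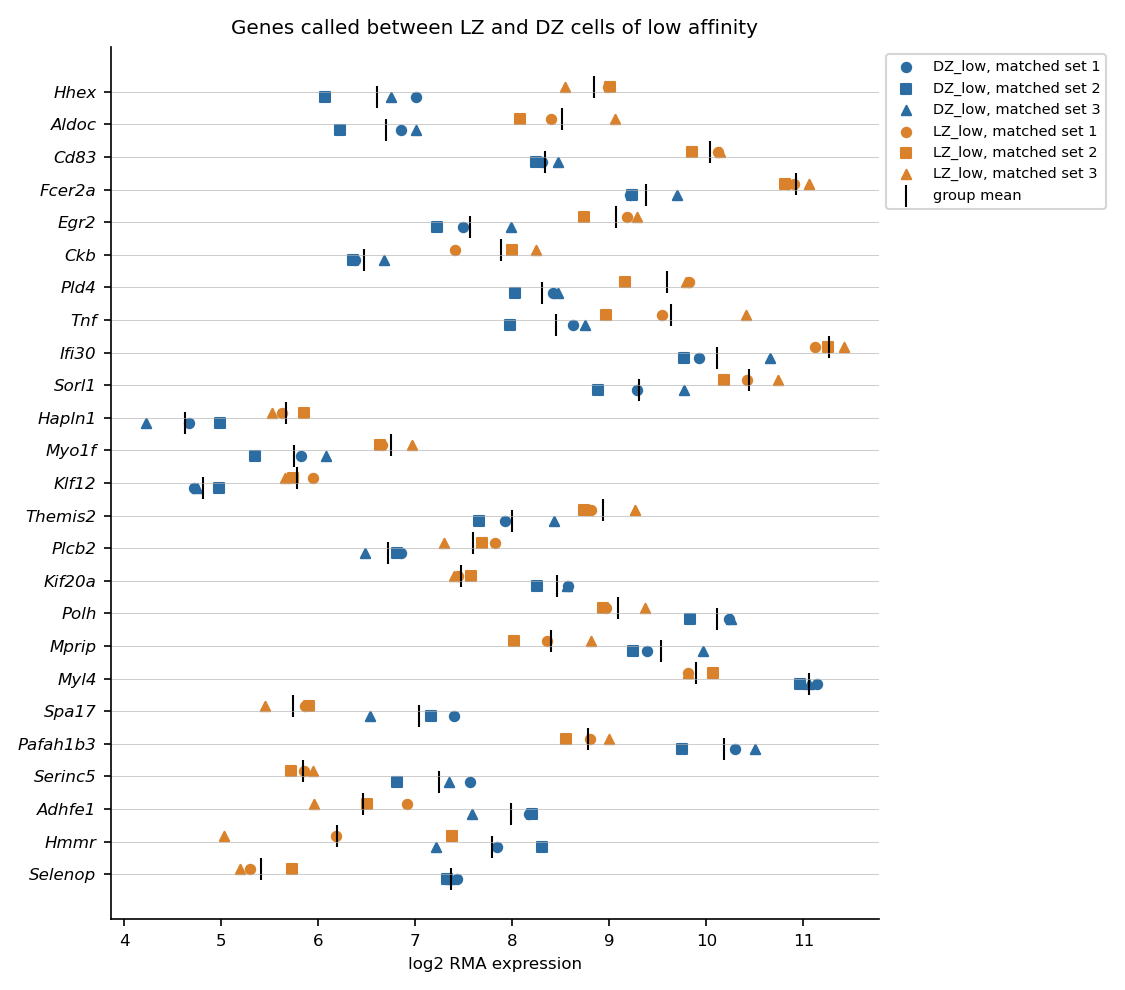
Log2 RMA expression (horizontal axis) of the 25 called genes in each of the 3 DZ_low (blue) and 3 LZ_low (orange) arrays; the marker shape gives the matched set and the black bar the group mean. In 24 genes the 2 groups do not overlap, and in Hmmr the LZ_low value of set 2, 7.38, lies above the DZ_low value of set 3, 7.21.

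2 mitotic genes fell, Hmmr and Kif20a. Hmmr, which encodes a hyaluronan receptor that also sits on the mitotic spindle, was at 7.84, 8.31 and 7.21 in DZ_low and at 6.18, 7.38 and 5.03 in LZ_low. The groups overlapped, but LZ_low was lower within each of the 3 pairs, and Hmmr fell by 1.59 (SE 0.23; adjusted p = 0.0394 with the block, 0.876 without). Kif20a, a kinesin of cytokinesis, was at 8.57, 8.26 and 8.56 in DZ_low and at 7.44, 7.57 and 7.40 in LZ_low, and fell by 0.99 (SE 0.16; adjusted p = 0.0465). Unlike Hmmr, Kif20a did not overlap between the groups.

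The other genes of G2 and M phase had lower means in LZ_low, all short of the threshold. Of 26 tested, 0 rose and 2 fell, and 26 had a lower mean in LZ_low, against 50.5% of all genes tested. An unadjusted p below 0.05 with LZ_low lower was found for 19 of the 26, against 3.2% of all genes tested, and LZ_low lay wholly below DZ_low in 14, against 3.86% of all genes. The median difference was -0.65 (-0.87, -0.28 and -0.72 in sets 1, 2 and 3), beside a median of -0.003 over all genes tested. Cdc20, the activator of the anaphase-promoting complex, was at 9.56, 9.20 and 9.63 in DZ_low and at 8.05, 8.54 and 8.32 in LZ_low. Its difference of -1.16 ± 0.19 was just outside the threshold (adjusted p = 0.0554), although the groups did not overlap. Ccnb2, a mitotic cyclin, was at 11.07, 10.85 and 10.88 in DZ_low and at 9.67, 10.08 and 9.92 in LZ_low (difference -1.04 ± 0.18, adjusted p = 0.0581). Aspm, a spindle pole protein outside the list, differed by -1.37 ± 0.23 (adjusted p = 0.0536), with overlapping groups. Mki67, the proliferation marker, differed by -0.68 ± 0.22 (adjusted p = 0.403). In contrast, of 25 genes of G1/S and DNA replication 0 were called, 16 had a higher and 9 a lower mean in LZ_low, and the median was 0.08.

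**Figure D3:**
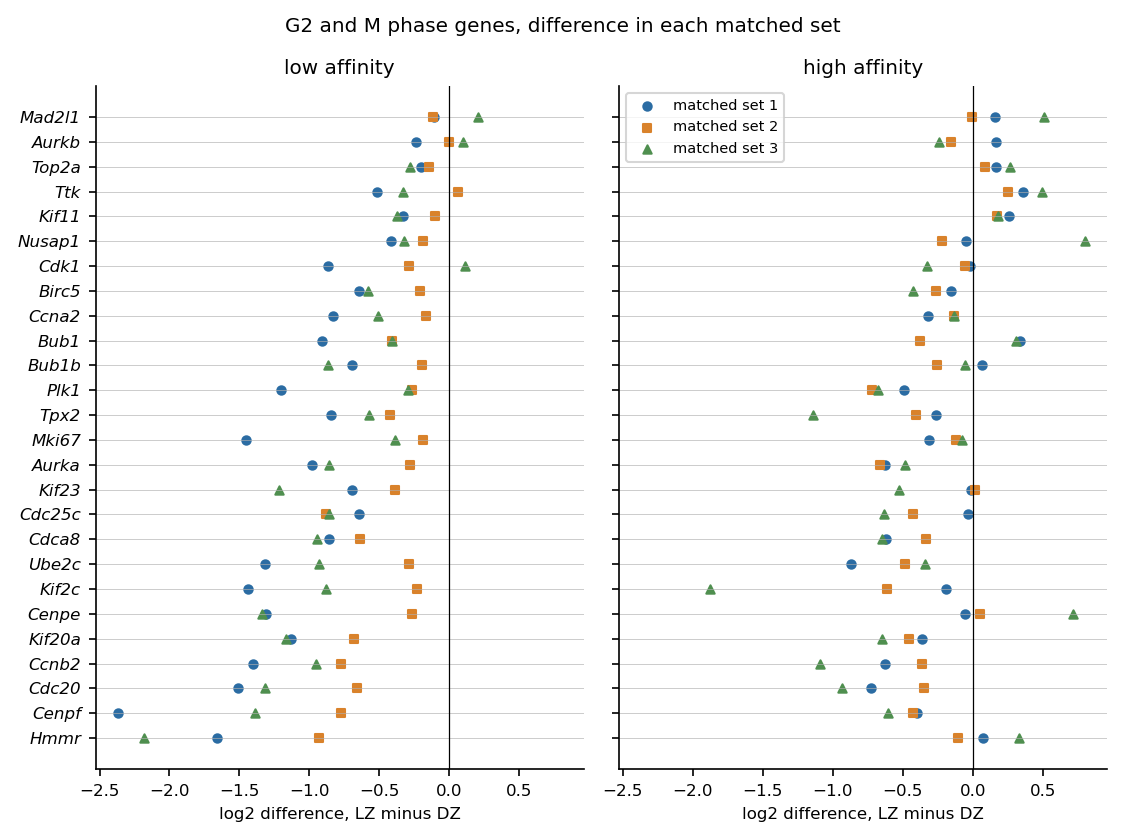
Difference between LZ and DZ (log2, horizontal axis) in each matched set for the 26 G2 and M phase genes, at low affinity (left) and at high affinity (right). At low affinity the values lie mostly below 0 and are closest to it in set 2 (median -0.28), and at high affinity they scatter about a median of -0.19.

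Promoters of G2 and M genes are known to carry the cell cycle homology region bound by the DREAM and MuvB complexes, and CCAAT boxes bound by NF-Y. 3 promoters are printed because their genes carry the mitotic difference: Hmmr, which fell, and Ccnb2 and Cdc20, which came closest to the threshold among the other listed members with groups that did not overlap. Each window runs from 250 bases before to 30 after the RefSeq transcript start on the minus strand of GRCm38.p6 (chr11:40733408-40733687, chr9:70421525-70421804 and chr4:118437314-118437593), is written 5′ to 3′ and has in capitals each TTTGAA, taken as the core of the cell cycle homology region, and each CCAAT box, which reads ATTGG where it lies on the other strand.
Hmmr: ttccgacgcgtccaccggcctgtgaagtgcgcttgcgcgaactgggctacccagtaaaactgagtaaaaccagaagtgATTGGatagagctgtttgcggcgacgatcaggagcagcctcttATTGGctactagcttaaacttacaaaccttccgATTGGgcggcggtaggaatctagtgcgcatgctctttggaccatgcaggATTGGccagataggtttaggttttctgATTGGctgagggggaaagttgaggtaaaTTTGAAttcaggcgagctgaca
Ccnb2: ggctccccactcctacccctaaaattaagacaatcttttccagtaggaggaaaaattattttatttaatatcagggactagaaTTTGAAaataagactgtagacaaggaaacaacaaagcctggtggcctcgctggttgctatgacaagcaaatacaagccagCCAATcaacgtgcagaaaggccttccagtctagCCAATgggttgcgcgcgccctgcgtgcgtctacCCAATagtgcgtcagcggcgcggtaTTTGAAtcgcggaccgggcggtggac
Cdc20: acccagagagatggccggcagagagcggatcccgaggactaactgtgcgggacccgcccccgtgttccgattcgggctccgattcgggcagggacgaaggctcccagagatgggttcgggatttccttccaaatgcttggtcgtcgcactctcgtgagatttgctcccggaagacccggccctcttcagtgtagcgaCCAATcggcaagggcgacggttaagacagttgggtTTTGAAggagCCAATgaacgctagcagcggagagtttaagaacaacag
Hmmr holds its TTTGAA just after the start and all of its CCAAT boxes on the opposite strand, while Ccnb2 and Cdc20 hold theirs on the strand of the gene. Searched on both strands over 300 bases (250 before to 50 after the start), TTTGAA was found for 16 of the 21 listed G2 and M genes with a window (76.2%), in 1252 of the 8970 tested genes with a window and in 17.9% of all 32851 windows. CCAAT was found for 17 of the 21 (81.0%), in 42.2% of tested genes and in 37.4% of all windows. A gene with several windows counts once if any holds the letters. These matches are letters in a window and were not tested for binding.

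Lists of zone genes lay in the direction their names say, but they include the sort genes, genes named as zone markers for this comparison and genes known from earlier zone studies, so their direction is not independent evidence. Of 22 light zone genes tested, 3 rose (Cd83, Fcer2a and Egr2) and 0 fell, and 22 had a higher mean in LZ_low, against 49.5% of all genes. Their median difference was 0.74, with 0.65, 0.74 and 0.70 in sets 1, 2 and 3. Ccr6, the receptor for the chemokine CCL20, differed by 0.82 ± 0.14 (adjusted p = 0.0603) and Egr1 by 1.27 ± 0.23 (adjusted p = 0.0711). Egr1 was at 7.18, 7.19 and 8.73 in LZ_low, the highest of these in the set 3 array that also held the most Lyz2, Ngp and Thy1; their part in that value was not tested. In the limma fits without sets 1, 2 and 3, Egr1 differed by 1.56, 1.37 and 0.87 (adjusted p = 0.517, 0.672 and 0.203). Those fits called 0, 0 and 5 of all genes tested, so these p-values are not particular to Egr1. Of 12 dark zone genes tested, 3 fell (Polh, Pafah1b3 and Hmmr) and 0 rose. All 12 had a lower mean in LZ_low, against 50.5% of all genes, with a median of -0.62. Foxp1, a forkhead transcription factor, differed by -0.76 ± 0.15 (adjusted p = 0.0972) with groups that did not overlap.

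Genes of activation through NF-kB and the antigen receptor were mostly higher in LZ_low with few calls. Of all genes tested, 49.5% had a higher mean in LZ_low. Of 15 NF-kB targets tested 1 rose (Cd83), 0 fell and 14 had a higher mean in LZ_low, with a median of 0.46. Nfkbia, which encodes the inhibitor IkB-alpha and is itself induced by NF-kB, was at 7.22, 7.02 and 7.34 in DZ_low and at 8.45, 8.03 and 8.13 in LZ_low. These groups were separated, yet the difference of 1.01 ± 0.22 did not pass (adjusted p = 0.145). Of 16 early response genes tested 1 rose (Egr2), 0 fell, and the median was 0.36, while Fos, Fosb, Jun, Nr4a2 and Nr4a3 were too dim to be tested. Atf3, a stress-induced member of the same list, was lower in LZ_low by -0.48 ± 0.14 (adjusted p = 0.3). Of 19 antigen receptor signalling genes 0 were called and 16 had a higher mean in LZ_low, with a median of 0.33. That median was uneven across sets, 0.16, 0.38 and 0.50 in sets 1, 2 and 3. Cd72, a coreceptor that restrains receptor signals, differed by 1.29 ± 0.30 (adjusted p = 0.161), and Cr2, the complement receptor that strengthens them, by 0.91 ± 0.18 (adjusted p = 0.0898).

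The Nfkbia promoter is printed as the best known NF-kB target on the list (GRCm38.p6, chr12:55492618-55492897, minus strand, 250 bases before to 30 after the start, 5′ to 3′), with the kappa-B letters in capitals, searched as GGG and TTTCC with 2 bases of any kind between them and read here on the opposite strand.
Nfkbia: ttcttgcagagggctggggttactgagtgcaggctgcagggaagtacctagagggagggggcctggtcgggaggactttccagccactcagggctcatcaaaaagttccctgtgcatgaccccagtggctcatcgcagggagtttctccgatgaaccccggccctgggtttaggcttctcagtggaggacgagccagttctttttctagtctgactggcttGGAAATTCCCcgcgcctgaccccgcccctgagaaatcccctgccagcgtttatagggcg
The kappa-B letters were found for 4 of the 12 NF-kB targets with a window (33.3%; Nfkbia, Nfkb2, Rel and Tnfaip3), in 1.9% of tested genes with a window and in 1.6% of all windows. Among the 25 called genes, 21 had a window: 0 of 14 rises and 1 of 7 falls (Myl4) held these letters. The rise without a window was Cd83, the only NF-kB target called, so its promoter was not searched.

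Antigen presentation and T cell help genes followed the same direction, beside 49.5% of all genes tested with a higher mean in LZ_low. Of 10 MHC class II presentation genes tested, 1 rose (Ifi30), 0 fell and 10 had a higher mean in LZ_low, with a median of 0.41. An unadjusted p below 0.05 with LZ_low higher was found for 9 of the 10, against 4.52% of all genes tested. H2-Oa, a chain of the peptide loading modulator H2-O, was at 10.02, 9.38 and 10.14 in DZ_low and at 10.74, 10.33 and 11.38 in LZ_low (difference 0.97 ± 0.22, adjusted p = 0.161). Cd74, the invariant chain, differed by 0.55 ± 0.13 (adjusted p = 0.201) and Ciita, the class II transactivator, by 0.61 ± 0.20 (adjusted p = 0.434). Of 15 T cell help receptors and ligands 0 were called and 14 had a higher mean in LZ_low, with a median of 0.50. Tnfsf9, which encodes the 4-1BB ligand, was at 5.69, 5.33 and 5.35 in DZ_low and at 7.05, 6.22 and 6.57 in LZ_low (difference 1.16 ± 0.28, adjusted p = 0.189). Slamf1 differed by 0.82 ± 0.20 (adjusted p = 0.198) and Cd40 by 0.56 ± 0.16 (adjusted p = 0.329).

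Cholesterol biosynthesis genes were higher in LZ_low without a call. Of 16 tested 0 rose and 0 fell, while 16 had a higher mean in LZ_low (49.5% of all genes tested), 12 had an unadjusted p below 0.05 with LZ_low higher (4.52% of all genes) and 9 had LZ_low wholly above DZ_low (5.41% of all genes). The median difference was 0.54, with 0.27, 0.66 and 0.44 in sets 1, 2 and 3. Srebf2, the transcription factor that drives this pathway, differed by 0.74 ± 0.19 (adjusted p = 0.227). Dhcr7, an enzyme of the last steps to cholesterol, was at 6.26, 6.38 and 6.33 in DZ_low and at 7.02, 6.70 and 7.38 in LZ_low (difference 0.71 ± 0.16, adjusted p = 0.161). Msmo1, a sterol demethylating oxidase, was at 8.43, 8.12 and 8.82 in DZ_low and at 9.05, 8.91 and 9.24 in LZ_low. Its groups did not overlap either (difference 0.61 ± 0.16, adjusted p = 0.253).

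Its promoter is shown because CCAAT, whose factor NF-Y is known to act beside SREBP at sterol genes, was found for 13 of the 13 listed cholesterol genes with a window, against 42.2% of tested genes. The window is on the minus strand of GRCm38.p6, chr8:64733549-64733828, from 250 bases before to 30 after the start, 5′ to 3′, with CCAAT in capitals.
Msmo1: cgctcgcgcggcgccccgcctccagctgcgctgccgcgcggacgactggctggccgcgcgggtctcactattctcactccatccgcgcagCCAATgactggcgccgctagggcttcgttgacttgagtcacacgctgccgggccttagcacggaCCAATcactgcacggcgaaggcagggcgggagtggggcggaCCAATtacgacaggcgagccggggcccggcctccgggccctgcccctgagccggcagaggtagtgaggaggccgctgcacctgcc

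Fate, migration and identity genes showed smaller or mixed differences. Of 15 memory B cell genes 1 rose (Hhex) and 0 fell, with 12 higher and 3 lower and a median of 0.44. That median was uneven across sets, 0.06, 0.28 and 0.53. Nt5e, the ectonucleotidase CD73, was at 7.84, 7.85 and 7.70 in DZ_low and at 6.89, 7.06 and 5.85 in LZ_low (difference -1.20 ± 0.26, adjusted p = 0.131), opposite in direction to Hhex. Of 13 plasma cell genes 0 were called, 5 were higher and 8 lower, with a median of -0.14. Jchain, the joining chain of secreted antibody, was at 11.07, 10.62 and 10.96 in DZ_low and at 10.02, 9.50 and 10.38 in LZ_low (difference -0.92 ± 0.18, adjusted p = 0.0898). Irf4 differed by 0.76 ± 0.28 (adjusted p = 0.497), Xbp1 by -0.14 ± 0.20 (adjusted p = 0.979), and Prdm1 was too dim to be tested. Of 18 positioning and migration genes 0 were called. The smallest adjusted p among them belonged to Ccr6, at 0.0603, and the next to the sphingosine phosphate receptor gene S1pr3, which was at 7.61, 7.36 and 6.86 in DZ_low against 8.88, 8.65 and 8.62 in LZ_low (difference 1.44 ± 0.29, adjusted p = 0.0995).

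No regulator of the germinal centre programme passed the threshold. Bcl6 differed by 0.03 ± 0.16 (adjusted p = 0.997), Pax5 by -0.22 ± 0.18 (adjusted p = 0.927), Bach2 by -0.24 ± 0.31 (adjusted p = 0.976) and Foxo1 by -0.28 ± 0.18 (adjusted p = 0.851). For each of these 4 genes the 2 groups overlapped. Myc, which is induced in selected cells, was at 7.81, 7.12 and 8.04 in DZ_low and at 8.37, 8.19 and 8.74 in LZ_low, with all LZ_low values above all DZ_low values and a difference of 0.78 ± 0.38 (adjusted p = 0.7). Of 23 Myc target and ribosome biogenesis genes 0 were called, and the median was 0.01. Of 16 hypermutation and repair genes Polh alone was called, and the list's median was -0.05. Of 23 oxidative phosphorylation genes 0 were called and 21 had a lower mean in LZ_low, against 50.5% of all genes tested. Their median was -0.18.

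The remaining lists gave no call in 17 unfolded protein response genes (median 0.08), 14 apoptosis regulators (0.12), 11 interferon response genes (-0.03), 8 heat shock and sorting stress genes (-0.04), 8 follicular dendritic and stromal markers (0.02) and 4 erythroid and platelet markers (-0.004). Among the stromal markers, Pecam1 differed by 0.87 ± 0.20 (adjusted p = 0.165) and Mfge8 by -0.33 ± 0.12 (adjusted p = 0.512). For both genes the groups did not overlap. Of 7 naive and marginal zone B cell markers, 1 rose, Fcer2a, which the light zone list also holds. The mean level of the 7 lay between 7.34 and 7.60 in DZ_low and between 7.73 and 8.20 in LZ_low, and the part of such cells in the Fcer2a value was not tested.

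**Figure D4:**
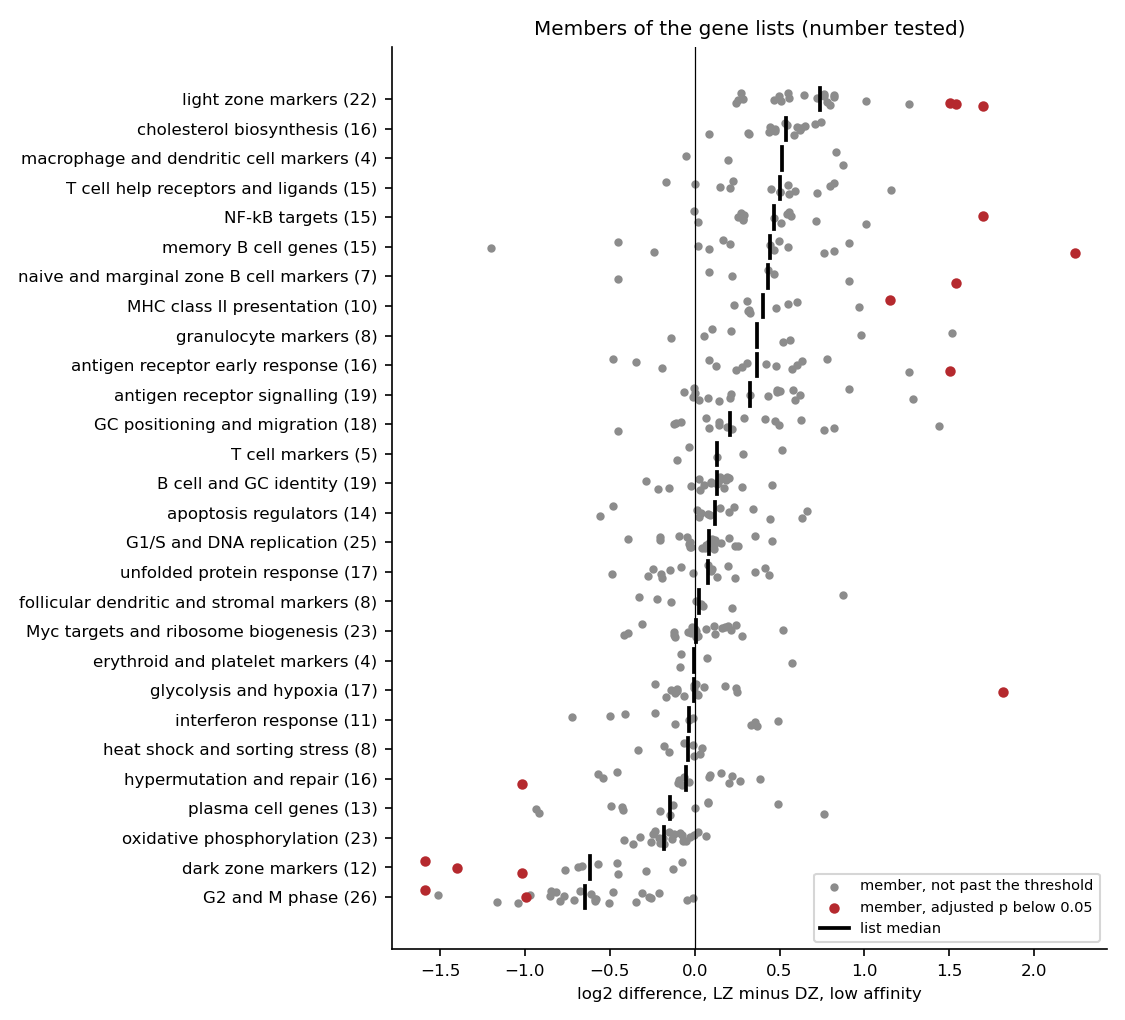
Difference between LZ_low and DZ_low (log2, horizontal axis) of each tested member of 28 gene lists, with the list's median as a black bar and called members in red; lists are ordered by median and the number tested is in brackets. The G2 and M phase list is at the low end with a median of -0.65 and the light zone list at the high end with 0.74.

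The high-affinity arrays, which share no LZ or DZ array with the comparison but share its fit and matched sets, were used to read the 25 called genes again. At high affinity 9 of 11206 genes were called (0.0803%), 5 of them also called at low affinity (Cd83, Fcer2a, Egr2, Myl4 and Pafah1b3). The sign was the same at both affinities for 24 of the 25 (96%), and for 56.0% of all genes tested. In 24 of the 25 all 3 high-affinity pairs had the sign found at low affinity. The share of this over all genes tested was not determined, so the count cannot be weighed. The median size was 1.29 at low and 0.78 at high affinity, and 23 of the 25 were smaller at high affinity. The 25 were chosen by their low-affinity values.

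**Figure D5:**
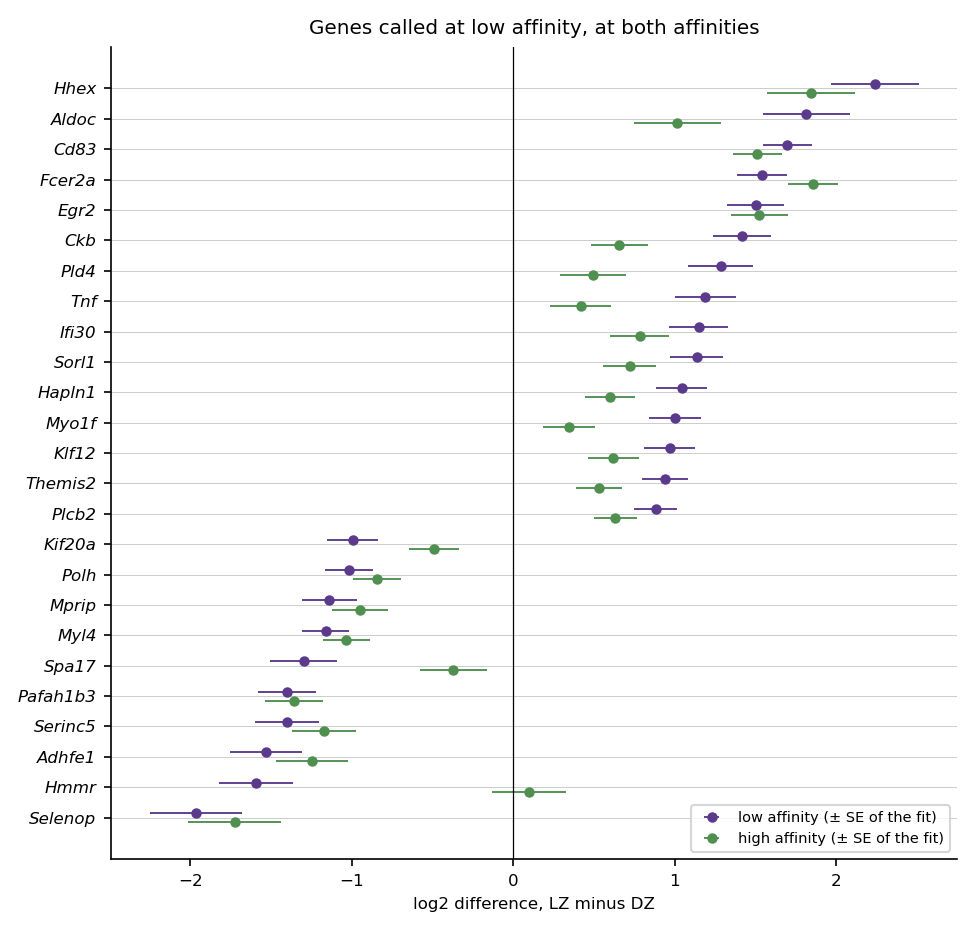
Difference between LZ and DZ (log2, horizontal axis; points with the SE of the fit) for the 25 genes called at low affinity, at low affinity (purple) and at high affinity (green). Hmmr is the gene with opposite signs, -1.59 at low and 0.10 at high affinity, and Fcer2a and Egr2 are the ones with a larger rise at high affinity.

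The test of the difference itself, the interaction of zone and affinity, called 0 genes (percent called 0; lowest adjusted p = 1.00), with 408 genes at an unadjusted p below 0.05 (3.64%). Among the 25 called genes 7 had an unadjusted interaction p below 0.05. The 25 were chosen by their low-affinity differences, which enter the interaction, so this count is not evidence that they depend on affinity. Hmmr gave the smallest of these, with a difference at low minus at high affinity of -1.69 ± 0.32. Spa17 fell by 1.30 at low affinity and differed by -0.37 at high affinity (low minus high -0.93 ± 0.29), and Ckb, Myo1f, Tnf, Pld4 and Kif20a were likewise larger in size at low affinity. Tnf differed by 0.42 at high affinity and Ckb by 0.66. In the opposite sense, Cd86 differed by 0.80 at low and 1.47 at high affinity (low minus high -0.67 ± 0.21) and Tnfsf9 by 1.16 and 2.23 (low minus high -1.07 ± 0.39). The G2 and M phase median was -0.65 at low and -0.19 at high affinity, 18 of its 26 members had the same sign at both, and 6 had an unadjusted interaction p below 0.05. The median of the 19 antigen receptor signalling genes was 0.33 at low and -0.08 at high affinity, and that of the 16 cholesterol genes 0.54 and 0.38.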

How the data were processed

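Expression was measured on 12 one-colour arrays, 3 per group, from RNA that was amplified and biotin-labelled, per the labels' protocols. The deposited values are log2 RMA values per probe set. The submitters' processing notes give RMA and mm8 and no further step; base 2 was inferred from the range of the values, 1.99 to 13.74. No 2 arrays were identical.

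Of 28853 probe sets, 21789 carried 1 gene symbol, 1621 several and 5443 none. A gene (19938 in all) was taken as its probe set with the highest mean over 12 arrays. Genes at or above the array's median in at least 3 arrays were tested, which left out 8732.

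Group means and matched set, as a fixed replicate block, were fitted with limma 3.58.1 in R 4.3.3 (lmFit, eBayes, two-sided; Benjamini-Hochberg over all genes tested). The block follows the shared suffixes of the sample descriptions. With group means removed, LZ_low and DZ_low arrays of the same set correlated across genes at 0.29, 0.56 and 0.52, and 17 of the 18 same-set pairs of all groups were above 0.1. Tested on simulated data, with 200 of 11206 genes changed, the fit recovered 51% at a log2 difference of 1 and 87% at 1.5, with 7 false calls. The number changed was set for the simulation, while these data gave 25 calls, so these rates are not the sensitivity of this comparison. The number of arrays limits the precision.

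The comparison, the gene lists and the rule for named genes were chosen with earlier results of these data known. The rule names every called gene, the 5 next in each direction, zone markers and regulators, from each list the members with the smallest p, at most 4, and the 3 genes with the smallest interaction p in each direction; predicted genes and receptor segments are not named. Promoter windows are from RefSeq tables of GRCm38.p6, with 21 of the 25 called genes matched by symbol. Alternatives were fits without or with a random block, other filters, scalings and probe set rules, eBayes options, array weights, a fold minimum of 1.5, and fits without single arrays or sets.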

Additional observations from a re-analysis of the deposited data

Results flagged for a closer look

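For 7 named genes all 3 pairs moved one way at low affinity and all 3 the other way at high affinity, as did 238 of the 11206 genes tested (2.12%). None passed the interaction test of the limma fit (lowest adjusted p over all genes = 1.00). The value given for each is the LZ minus DZ difference at low affinity minus that at high affinity.

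Il6st, the gene of the signalling chain gp130, was higher in LZ at low affinity (0.59) and lower at high affinity (-0.55), a difference of 1.14. Its DZ_low values were 5.80, 5.61 and 5.13 and its LZ_low values 6.10, 6.12 and 6.08. Dph7, an enzyme of diphthamide synthesis, gave 0.79, from 0.45 at low and -0.34 at high affinity.

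Nop16, a ribosome assembly gene, was lower in LZ at low affinity (-0.41) and higher at high affinity (0.65), a difference of -1.06. Efcab7 gave -1.33 and Lztfl1, which with Efcab7 is known from the primary cilium, -0.96. The heat shock genes Hsp90aa1 and Dnaja1 gave -0.50 and -0.29.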

How the results depend on the processing

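The 25 calls at low affinity (9 at high affinity) numbered 4 (4) with no replicate block, 18 (12) with a random block, 24 (9) without the filter, 23 (13) at percentile 75, 48 (25) after quantile normalization, 2 (5) with arrays centred on their medians, 54 (34) with eBayes trend and robust, 144 (30) with array weights, 8 (19) over all probe sets and 25 (9) with a gene's probe sets averaged or a fold minimum. The low-affinity arrays alone gave 0 with the block and 0 without it, with 1250 and 575 genes at an unadjusted p below 0.05. Of the 25, 24 were called after quantile normalization, 25 with array weights and 13 with the random block. The share of calls that were rises, 60%, was 38.9% with the random block, 47.8% at percentile 75 and 100% with centring (Cd83 and Fcer2a); the centring moved the median of all genes to 0.008. Leaving out 1 array gave 0 to 40 calls at low affinity (2 without LZ_high replicate 2, 3 without DZ_high replicate 2, 9, 10 and 14 without LZ_high replicate 1, DZ_high replicate 3 and DZ_high replicate 1, 40 without LZ_high replicate 3) and 1 to 14 at high affinity. Without set 1, 2 or 3 the counts were 0, 0 and 5 at low affinity (unadjusted 668, 594 and 753) and 0, 0 and 3 at high affinity. Without set 3 and with no block, an alternative added after the data were seen, they were 5 and 5. The interaction called 0 genes in every fit of both affinities listed here, with 177 genes at an unadjusted p below 0.05 without the block. No called gene reversed its direction in these fits. Detection p-values were not used here, so genes near the array medians, such as Hapln1 and Klf12, may be close to background. The cause of the changes in count was not tested.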

Other observations

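2 further genes were singled out after their values were seen. Without matched set 3 the fit called 5 genes, all higher in LZ_low: Cd83, Fcer2a, Hhex, Serpinb1a and Nxpe2. Serpinb1a, an inhibitor of neutrophil serine proteases, was at 5.68, 5.07 and 6.58 in DZ_low and at 7.87, 8.03 and 7.33 in LZ_low. The difference was 2.58 without set 3 (adjusted p = 0.0252) and 1.97 ± 0.36 with it (adjusted p = 0.0797), and 0.93 at high affinity. Nxpe2 was at 8.20, 8.07 and 8.61 in DZ_low and at 9.84, 9.45 and 9.52 in LZ_low, with differences of 1.51 without set 3 (adjusted p = 0.0473) and 1.31 ± 0.27 with it (adjusted p = 0.125). For both genes the groups did not overlap, and set 3 showed the smallest difference of the 3.

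Below the threshold, Ptgr1, which reduces prostaglandins and leukotrienes, had a difference as large as that of Selenop. It was at 8.78, 8.78 and 9.70 in DZ_low and at 7.32, 7.45 and 6.56 in LZ_low (difference -1.97 ± 0.33, adjusted p = 0.0574). Scn11a, a sodium channel gene, differed by -1.41 ± 0.24 and Mtf2, a Polycomb cofactor, by -1.20 ± 0.21 (adjusted p = 0.0581 for both). Bcl2a1c, of the antiapoptotic A1 family, whose members are near-identical and may share probes, differed by 0.92 ± 0.17 (adjusted p = 0.0711), and Plbd1 and Ubxn11 by 0.94 ± 0.16 and 1.14 ± 0.20 (adjusted p = 0.0581 for both).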
